A study of Mus musculus with 9 samples.

Results

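Fatty acid oxidation genes were followed in kidney RNA from mice of 3 groups. The 38 genes were chosen by name as enzymes, transporters and electron carriers of mitochondrial and peroxisomal fatty acid oxidation. All 38 had a row among the 21935 genes of the count table, and all 38 were among the 14069 genes kept after a filter on low counts.

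The mice were C57BL/6, and the labels describe every one as female. The Con group was WT and received 0.5 ml of saline by the treatment protocol, although its treatment field reads none. The PIL group was WT and received a single intraperitoneal injection of 0.5 ml of pristane, a branched hydrocarbon oil used to set off lupus-like disease in mice. The GKO group was Gsdmd-/-, lacking the pore-forming protein gasdermin D in the whole animal. Its treatment field also reads none, whereas the study describes the Gsdmd-/- kidneys as coming from pristane-treated mice, so the injection of the GKO group cannot be settled from the labels. Injection was at 4 weeks of age, and kidneys were taken 31 weeks later. Each group had 3 libraries of whole-kidney RNA. No source used here says if the 3 libraries of a group are 3 mice, so the p-values measure the spread between these libraries only.

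Kidney proximal tubule cells obtain much of their energy by burning fatty acids. A fatty acid is first joined to coenzyme A by a synthetase and then, if long, carried into mitochondria by the carnitine shuttle. There it is shortened in repeated rounds of dehydrogenation, hydration, a further dehydrogenation and thiolysis. Electrons from the first step pass through the electron transfer flavoprotein to the respiratory chain. Peroxisomes shorten very long, branched and bile acid side chains with their own oxidases and thiolases, and the products leave as carnitine esters.

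Library totals ran from 13311063 to 16299328 counts. Values in CPM are counts divided by the library total and scaled between libraries. Several libraries stood apart or went against their labels. Reads of 4 genes of the Y chromosome (Ddx3y, Uty, Kdm5d and Eif2s3y) came to 1854, 1882 and 3077 counts in Con replicates 1, 2 and 3 and to 0 in all 6 PIL and GKO libraries. Y-linked RNA comes from male cells, so the Con libraries went against the female label. Every difference from Con below therefore also separates libraries with Y-linked reads from libraries without them. Injection or genotype cannot be told apart from this property, or from the sex it marks. The comparison of GKO with PIL does not have this limit. Gsdmd was at 7.06, 11.6 and 4.40 CPM in Con, 6.56, 20.1 and 10.7 in PIL and 2.06, 2.04 and 1.61 in GKO. It was lowest in the 3 GKO libraries. Con replicate 3 had a summed level of 166 CPM over 10 adipose markers, against 13.2 to 30.7 in the other 8 libraries. The sum of 6 skeletal muscle markers was 1.08 to 2.13 CPM in Con and 2.80 to 11.8 CPM in the other groups. Of these, Myh1 was at 0 to 0.147 CPM in Con, 0.280, 5.31 and 6.92 in PIL and 6.13 to 11.1 in GKO. Mylpf lay at 0.677 to 1.84 CPM in Con, 1.67 to 1.96 in PIL and 0.468 to 1.58 in GKO. Ckm, Acta1, Myh4 and Tnnt3 stayed at or below 0.376 CPM in every library.

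The PIL libraries differed among themselves. The summed level of 12 leukocyte markers was 3561, 2184 and 701 CPM in PIL replicates 1, 2 and 3, against 249 to 996 in Con and 377 to 589.9 in GKO. The summed level of 18 proximal tubule markers was 13074, 18426 and 23842 CPM in the same PIL libraries, against 19493 to 25729.6 in Con and 23753 to 26614 in GKO. PIL replicate 1 thus had the most leukocyte marker RNA and the least proximal tubule marker RNA of the 9 libraries, and PIL replicate 3 lay within the Con range for both. In whole-kidney RNA, fewer cells of a type and less RNA per cell cannot be told apart.

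The 38 genes together made up 1.37, 1.17 and 1.51% of counts in Con, 0.711, 0.908 and 1.01% in PIL and 1.16, 1.11 and 1.08% in GKO. The 3 groups did not overlap, with PIL lowest and Con highest. Acsm2 alone carried much of the gap between Con and GKO. Without Acsm2, the other 37 genes summed to 9176, 8463 and 10466 CPM in Con, 5600.4, 7612 and 8735 in PIL and 10224, 9817 and 9276 in GKO. The GKO libraries then lay within the Con range, PIL replicate 3 lay within it too, and PIL replicates 1 and 2 lay below it.

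**Figure D1:**
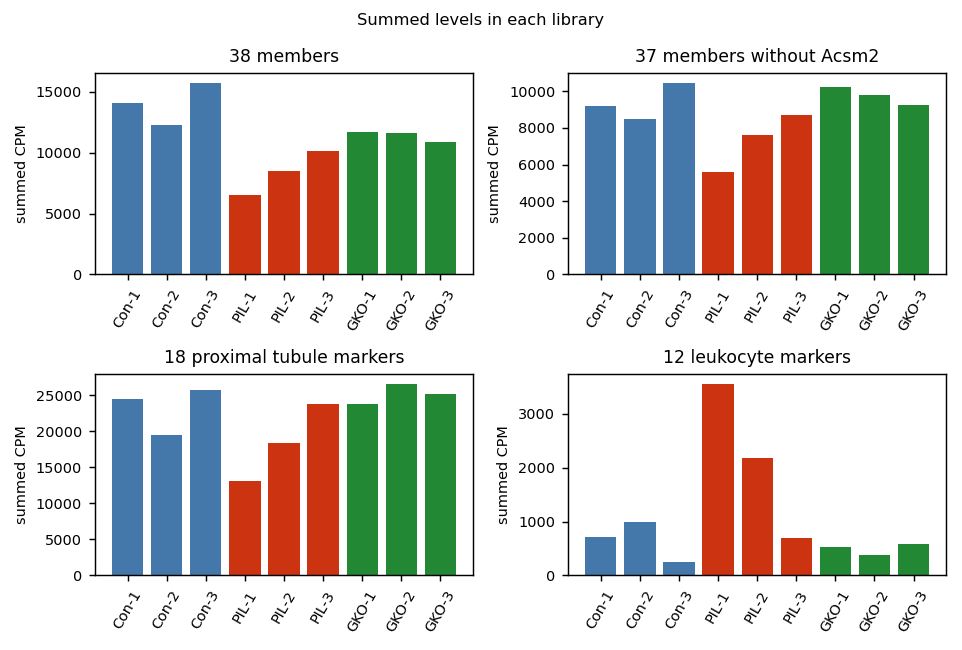
Summed CPM (vertical axes, linear, from 0) in each of the 9 libraries (horizontal axes; blue, Con; red, PIL; green, GKO) for the 38 genes, for the 37 without Acsm2, for 18 proximal tubule markers and for 12 leukocyte markers. PIL replicate 1 has the lowest sum of the 38 genes (6501 CPM) and of proximal tubule markers (13074 CPM) and the highest sum of leukocyte markers (3561 CPM).

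Per length, the most abundant of these RNAs in Con kidney was Acsm2, at 603 ± 103 FPKM (counts scaled by gene length and library total, mean ± SD, n = 3), a medium-chain acyl-CoA synthetase of mitochondria. It was followed by Acadm, the medium-chain acyl-CoA dehydrogenase, at 293 ± 14.7 FPKM, and by Ehhadh, the bifunctional enzyme of the peroxisome, at 235 ± 78.7 FPKM. In GKO kidney Acadm was first at 379 ± 75.0 FPKM, and Acsm2 stood at 212 ± 18.3 FPKM. The lowest levels in Con belonged to Etfb at 1.69 ± 0.840 FPKM and Abcd2, a peroxisomal transporter of very long chains, at 0.173 ± 0.165 FPKM. Etfb encodes the partner subunit of Etfa, which stood at 199.9 ± 9.77 FPKM. In the GENCODE M21 annotation 58.2% of the exonic bases of Etfb also lie under exons of other genes on the same strand, including Gm45233. The Etfb count is therefore uncertain, and Gm45233 has no row under that name in the count table.

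The first comparison asked how kidneys of pristane-injected WT mice differed from those of WT mice given saline. In PIL kidney, 6 of the 38 genes fell and none rose. Acsm3 and Acsm2, both mitochondrial medium-chain acyl-CoA synthetases, fell most, followed by Crot, the peroxisomal carnitine octanoyltransferase, and Acox3, a peroxisomal oxidase of branched-chain acyl-CoAs. Acadl, the long-chain acyl-CoA dehydrogenase, and Etfa, a subunit of the electron transfer flavoprotein, fell by less. Genes were called at an adjusted p under 0.05 by edgeR's quasi-likelihood test, where p-values were adjusted over all 14069 genes by the Benjamini-Hochberg method. Of all genes, 7.62% were called, 3.14% lower and 4.48% higher.

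An unadjusted p under 0.05 was reached by 14 of the 38 genes and 27.6% of all genes. Across the 38 genes, 30 log2 fold changes were below 0, against 48.9% of all genes. Their median was -0.24, against 0.01 over all genes. The 3 PIL libraries lay below all 3 Con libraries for 11 of the 38 genes, and above them for 2, against 11.7% and 13.4% of all genes, or 25.2% in either direction. Without PIL replicate 3, 14 of the 38 genes were called, 13 lower and 1 higher, against 25.7% of all genes. Without PIL replicate 1, 5 were called, all lower, against 5% of all genes, and the median was -0.15. Of the 12 leukocyte markers 8 rose in PIL kidney and none fell, and of the 18 proximal tubule markers 3 fell, namely Ggt1, Mep1a and Slc22a6, and none rose. The part of these cell type changes in the 6 lower genes was not tested.

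Among the synthetases, Acsm3 was at 526, 294 and 513 CPM in Con, 1.68, 0.656 and 0.226 in PIL and 1.23, 2.58 and 1.34 in GKO. It was abundant in every Con library and close to absent in all 6 others, with 3 to 34 counts in each. The PIL level was 0.00204 times that of Con, a log2 fold change of -8.94 ± 0.55 (SE; adjusted p = 9.02e-05, edgeR). The GKO level was 0.00384 times that of Con (log2 fold change -8.02 ± 0.53, adjusted p = 1.49e-04, edgeR). Of the exonic bases of Acsm3, 39.7% lie under Eri2 on the opposite strand, and no source used here gives the strand setting of the counting. Eri2 was at 5.30 to 15.8 CPM in Con and at 2.09 to 3.14 CPM in the other libraries. Its own reads were thus few beside those of Acsm3 in Con, but not beside the 0.226 to 2.58 CPM of Acsm3 in PIL and GKO. The part of Eri2 reads in the Acsm3 counts was not tested.

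Acsm2 was at 4893, 3777 and 5267 CPM in Con, 901, 860.1 and 1361 in PIL and 1444, 1793 and 1580.4 in GKO. The 3 groups did not overlap, with Con highest and PIL lowest. The log2 fold change was -2.16 ± 0.22 in PIL against Con (adjusted p = 0.00185, edgeR), or 0.224 times the Con level, and -1.53 ± 0.22 in GKO against Con (adjusted p = 0.00803). Between GKO and PIL it was 0.63 (95% interval 0.14 to 1.11), which was not called (adjusted p = 0.180, edgeR). In GKO against Con the call was lost without GKO replicate 1 or 3, with adjusted p up to 0.0535 in edgeR.

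The other synthetases were not called in any comparison. Acsl1, which activates long-chain fatty acids, was at 165, 289 and 362 CPM in Con, 234, 484 and 562 in PIL and 809, 719 and 658 in GKO. All GKO libraries lay above all others, while Con and PIL overlapped. Its log2 fold change in GKO against Con was 1.42 ± 0.35 (adjusted p = 0.0687, edgeR). Acsm1 lay at 132 to 211 CPM in Con, 94.1 to 342 in PIL and 325 to 395 in GKO. Acsm5 lay at 80.1 to 141, 48.8 to 126 and 99.3 to 118 CPM in the same groups, which overlapped throughout. The thioesterases Acot1 and Acot2, which split acyl-CoA again, were not called either. Acot1 was at 52.1 to 103 CPM in Con and 105 to 147 in GKO, with no overlap, and Acot2 at 24.5 to 32.5 and 27.2 to 44.0 CPM.

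In the carnitine group, Crot was at 641, 409 and 578 CPM in Con, 157, 182 and 189.9 in PIL and 208, 195 and 219.5 in GKO. All 6 PIL and GKO libraries lay well below the lowest Con library. The log2 fold change was -1.62 ± 0.17 in PIL against Con (adjusted p = 0.00226, edgeR) and -1.39 ± 0.17 in GKO against Con (adjusted p = 0.00363). Cpt1a, the outer membrane gate of the mitochondrial carnitine shuttle, was at 339, 388 and 480.3 CPM in Con and 253, 281 and 316 in PIL. These groups did not overlap, but the log2 fold change of -0.51 ± 0.17 did not pass adjustment (adjusted p = 0.0906, edgeR). The carrier Slc25a20 (47.0 to 69.4 CPM in Con, 56.0 to 60.4 in PIL, 42.5 to 59.6 in GKO), Cpt2 (164 to 188, 147 to 161 and 141 to 181 CPM) and Crat, the carnitine acetyltransferase (167 to 189, 146 to 167 and 149 to 157 CPM), were not called.

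Among the oxidases of the peroxisome, Acox3 was at 297, 243 and 279 CPM in Con, 91.9, 128 and 122 in PIL and 126, 159 and 128 in GKO. Con lay above all other libraries, and PIL and GKO overlapped. The log2 fold change was -1.26 ± 0.16 in PIL against Con (adjusted p = 0.00409, edgeR) and -0.99 ± 0.16 in GKO against Con (adjusted p = 0.0123). The second call was lost without Con replicate 1, GKO replicate 1 or GKO replicate 3, with adjusted p up to 0.0786 in edgeR. Acox2, an oxidase of bile acid intermediates and branched chains, was at 34.4 CPM in PIL replicate 1 and at 93.1 to 144 CPM in the other 8 libraries. It was not called in any comparison.

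**Figure D2:**
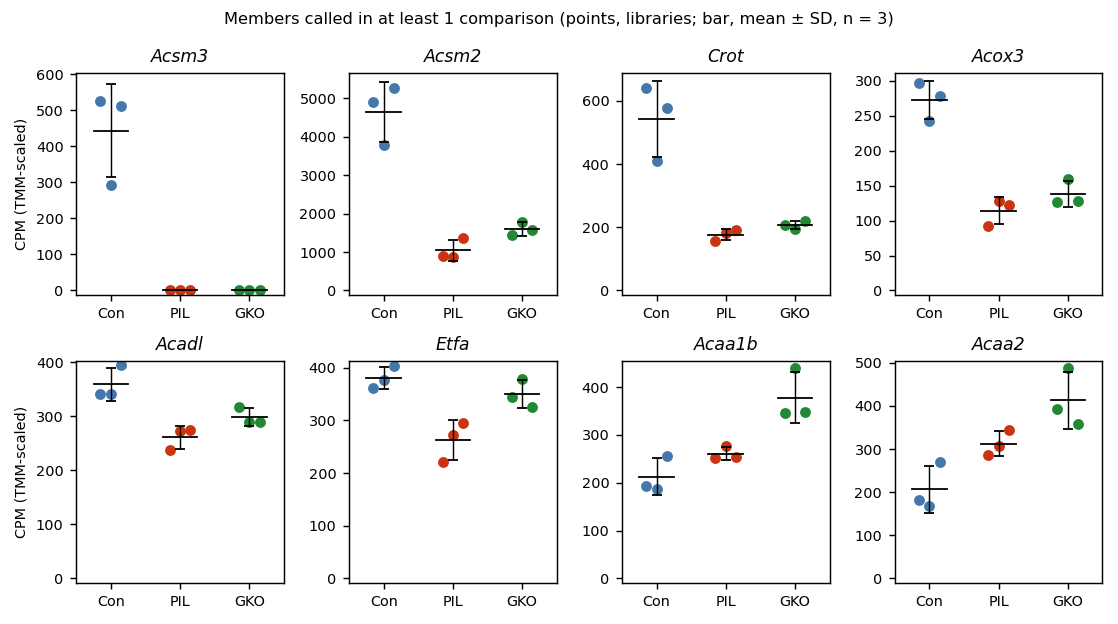
CPM (vertical axes, linear) of the 8 genes called in at least 1 comparison, by group (horizontal axes), with each library as a point and the mean ± SD (n = 3) as black bars. Acsm3, Acsm2, Crot and Acox3 are lower in all PIL and GKO libraries than in any Con library, and Acaa1b and Acaa2 are highest in GKO.

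The 100 bases before the RefSeq start are shown for Acsm2, Acsm3, Acox3 and Acaa1b, which are 4 of the 8 genes called in at least 1 comparison. The other called genes, Crot, Acadl, Etfa and Acaa2, are not shown. The sequences are credited to RefSeq on GRCm38.p6, run 5′ to 3′ along the gene, and have each CG pair in capitals.
Acsm2 (chr7:119554240-119554339, plus strand): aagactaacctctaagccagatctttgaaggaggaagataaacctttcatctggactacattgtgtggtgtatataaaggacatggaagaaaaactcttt
Acsm3 (chr7:119760823-119760922, plus strand): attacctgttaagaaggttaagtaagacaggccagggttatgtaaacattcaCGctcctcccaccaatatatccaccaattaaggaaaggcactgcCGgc
Acox3 (chr5:35582934-35583033, plus strand): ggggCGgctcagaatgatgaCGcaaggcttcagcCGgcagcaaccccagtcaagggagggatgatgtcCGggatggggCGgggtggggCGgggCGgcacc
Acaa1b (chr9:119157094-119157193, minus strand): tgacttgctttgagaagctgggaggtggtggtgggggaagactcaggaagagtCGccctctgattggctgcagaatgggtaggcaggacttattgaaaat
The Acsm2 stretch held 0 CG pairs, that of Acaa1b 1, that of Acsm3 2 and that of Acox3 7, against a median of 3 over 32851 promoters. Only the Acsm2 stretch among these 4 held TATAAA, which 3.8% of promoters held on the gene's strand. Its first base was at position -28 from the start.

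Promoter entries matched 33 of the 38 genes. They were searched on both strands, from 250 bases before the start to 50 after it, for AGGNCA repeated after 1 base, a form of the DR1 element bound by PPAR and RXR, for TCAAGGTCA, the element of estrogen-related receptors, and for AGAACA followed after 3 bases by TGTTCT, an androgen response element. None of the 33 genes held any of these in this window. Among all genes with an entry 0.451%, 0.466% and 0.0111% held them, so a match was rare throughout. Abcd2, Acaa2, Crat, Decr1 and Hsd17b4 had no entry.

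Of the mitochondrial acyl-CoA dehydrogenases, only Acadl was called in PIL against Con. Acadl was at 341, 342 and 394 CPM in Con, 237, 272 and 275 in PIL and 318, 289 and 289 in GKO. PIL lay below Con in all libraries, and GKO lay between them without overlap. The log2 fold change in PIL against Con was -0.46 ± 0.12 (adjusted p = 0.0469, edgeR). Etfa was at 362, 377 and 403 CPM in Con, 220.0, 273 and 295 in PIL and 345, 378 and 326 in GKO. PIL was again lowest, and GKO overlapped with Con. Its log2 fold change in PIL against Con was -0.54 ± 0.13 (adjusted p = 0.0442, edgeR). Both calls were lost when any library other than PIL replicate 3 was left out, with adjusted p up to 0.125 for Acadl and 0.120 for Etfa in edgeR.

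Acads, the short-chain dehydrogenase, was at 243, 251 and 207 CPM in Con and 190.5, 170.1 and 163 in PIL, a log2 fold change of -0.42 ± 0.11 that did not pass adjustment (adjusted p = 0.0548, edgeR). Hadh, the hydroxyacyl-CoA dehydrogenase of shorter chains, was at 563, 612 and 657 CPM in Con and 422, 460.3 and 501 in PIL, also without overlap and also not called (log2 fold change -0.40 ± 0.13, adjusted p = 0.0835). Acadvl, which handles very long chains, lay at 146 to 152 CPM in Con and 105 to 136 in PIL (adjusted p = 0.177). These 3 genes were thus lower in every PIL library without passing the threshold. Of the exonic bases of Acadvl, 42.9% lie under Dvl2 on the opposite strand.

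Echs1, the enoyl-CoA hydratase, lay at 268 to 283 CPM in Con and 227 to 292 in PIL, and Hadha, a subunit of the trifunctional protein, at 275 to 310.0 and 244 to 312 CPM, so that both overlapped between these groups. Acadm lay at 1127 to 1234 CPM in Con, at 396, 1094 and 1238 CPM in PIL and at 1246 to 1781 CPM in GKO. Its low PIL mean came from PIL replicate 1. Etfdh, which passes electrons on to ubiquinone, lay at 180.0 to 254 CPM in Con and 129.8 to 198 in PIL, and Etfb at 1.29 to 3.21 and 1.66 to 2.35 CPM.

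The isomerases and reductases that handle unsaturated chains were not called in any comparison. Eci3 was at 54.1, 109 and 161 CPM in PIL, against 161 to 209 in Con and 160.3 to 166 in GKO. Eci1 lay at 81.8 to 107 CPM in Con, 93.7 to 137 in PIL and 94.7 to 109.8 in GKO, and Eci2 at 69.0 to 90.8, 61.5 to 73.4 and 55.5 to 67.8 CPM. Decr1 lay at 178 to 231, 159 to 224 and 208 to 226 CPM. Decr2, the peroxisomal reductase, was at 69.1 to 69.9 CPM in Con and higher in every PIL library, at 73.4 to 89.5 CPM (log2 fold change 0.27 ± 0.11, adjusted p = 0.148, edgeR).

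The remaining peroxisomal genes did not differ between PIL and Con by the test. Ehhadh was at 259, 467 and 795 CPM in PIL, against 503 to 989 in Con and 707 to 882 in GKO. Abcd3, a transporter of the peroxisomal membrane, was at 180.2, 272 and 389 CPM in PIL, against 239.8 to 475 in Con and 400.2 to 488 in GKO. For both genes PIL replicate 1 was the lowest of the 9 libraries. Hsd17b4, the peroxisomal multifunctional enzyme of branched chains, lay at 214 to 282, 199 to 239.8 and 246 to 296 CPM in Con, PIL and GKO. Pex11a, which acts in peroxisome division, lay at 57.4 to 69.4, 48.2 to 58.0 and 53.9 to 67.5 CPM, Acaa1a at 129.8 to 169.6, 135 to 158 and 139 to 152 CPM, and Abcd2 at 0.149 to 2.17, 1.01 to 1.5 and 0.454 to 0.803 CPM.

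**Figure D3:**
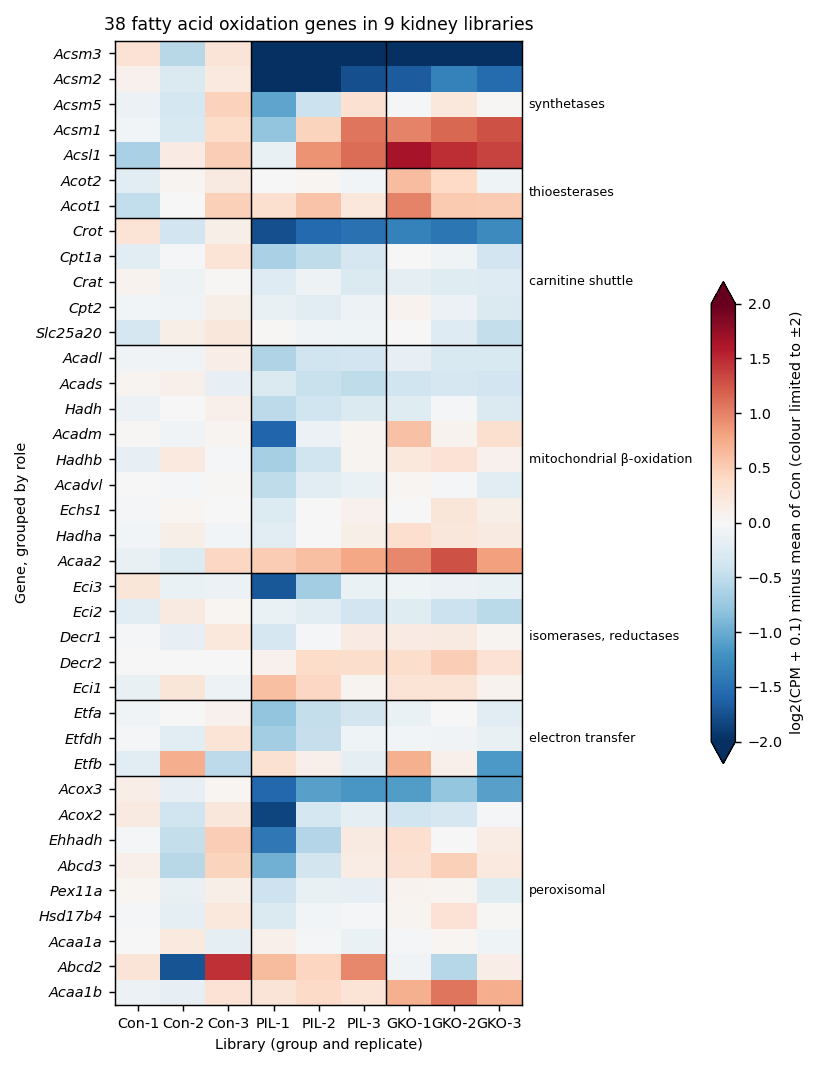
Log2(CPM + 0.1) of the 38 genes (rows, grouped by role) in the 9 libraries (columns), minus the mean of the 3 Con libraries, with blue below and red above that mean and the colour limited to ±2. PIL replicate 1 is the lowest of the 9 libraries for 21 of the 38 genes, and Acsm3, Acsm2, Crot and Acox3 are blue in all PIL and GKO libraries.

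The spread within the PIL group was itself wide for many of these genes. PIL replicate 1 was the lowest of the 9 libraries for 21 of the 38 genes, against 28.8% of all genes. Within the PIL group it was the lowest library for 25 of the 38, against 41.1% of all genes, and PIL replicate 3 was the highest for 24, against 40.0% of all genes. The ratio of PIL replicate 3 to PIL replicate 1 was 3.63 for Acsm1, 3.14 for Acox2, 3.12 for Acadm, 3.07 for Ehhadh, 2.97 for Eci3 and 2.40 for Acsl1. Among the genes called lower it was 1.51 for Acsm2, 1.34 for Etfa, 1.32 for Acox3, 1.21 for Crot and 1.16 for Acadl. Acsm3 went the other way, with a ratio of 0.134 that rests on 30 and 3 counts.

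The second comparison asked how Gsdmd-/- kidneys differed from PIL kidneys. None of the 38 genes was called, and neither was any of the 14069 genes, or 0%. At an unadjusted p under 0.05 there were 4 of the 38 genes and 20.9% of all genes. DESeq2, the package that the study used for differential expression, called 2 of the 38, both higher, and 6.24% of all genes. The limma-voom fit with sample quality weights called 16, all higher, and 45.8% of all genes. Without PIL replicate 3, edgeR called 7 of the 38 genes, all higher in GKO, and 22.3% of all genes. Without PIL replicate 1 it called none of the 38.

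The fold changes lay mostly above 0. Of the 38 genes 31 had a positive log2 fold change in GKO against PIL, with a median of 0.28, against -0.00 over all genes, where 50.1% were negative. The median was 0.15 without PIL replicate 1. All GKO libraries lay above all PIL libraries for 12 of the 38 genes and below them for 1, against 13.8% and 14.1% of all genes, or 27.9% in either direction. The leukocyte markers were lower in GKO for all 12 genes by fold change, and the 18 proximal tubule markers were all higher, with none called in either list by edgeR and 11 and 5 of them at an unadjusted p under 0.05. Their part in the differences between GKO and PIL was not tested.

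Among the 38 genes, the lowest p in this comparison belonged to Acaa1b, a thiolase of the peroxisome. Acaa1b was at 194, 188 and 257 CPM in Con, 252, 276 and 254 in PIL and 345, 441 and 349 in GKO. All GKO libraries lay above all others, and Con and PIL overlapped. Its log2 fold change in GKO against PIL was 0.54 (95% interval 0.19 to 0.89, adjusted p = 0.150, edgeR). For Etfa, with the values given above, it was 0.41 (0.11 to 0.71, adjusted p = 0.171, edgeR), with all GKO libraries above all PIL libraries.

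Hadhb, the thiolase subunit of the trifunctional protein, was at 203, 259.7 and 224 CPM in Con, 143, 173 and 237 in PIL and 265, 279 and 241 in GKO. GKO lay above PIL in all libraries, by little over PIL replicate 3. The log2 fold change was 0.51 (95% interval 0.09 to 0.92, adjusted p = 0.191, edgeR). For Acsl1 it was 0.77 (-0.00 to 1.55, adjusted p = 0.239, edgeR). Hadhb and Hadha, which encode the subunits of 1 complex, are divergent neighbours on chromosome 5, and the 85 bases between them are shown with CG pairs in capitals (RefSeq, GRCm38.p6).
between Hadha and Hadhb (chr5:30155163-30155247, plus strand): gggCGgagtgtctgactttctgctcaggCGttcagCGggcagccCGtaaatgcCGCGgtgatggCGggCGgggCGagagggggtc
The stretch held 9 CG pairs. The ratio of Hadha to Hadhb in FPKM lay between 0.902 and 1.02 in Con, 0.996 and 1.29 in PIL and 0.906 and 1.04 in GKO.

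**Figure D4:**
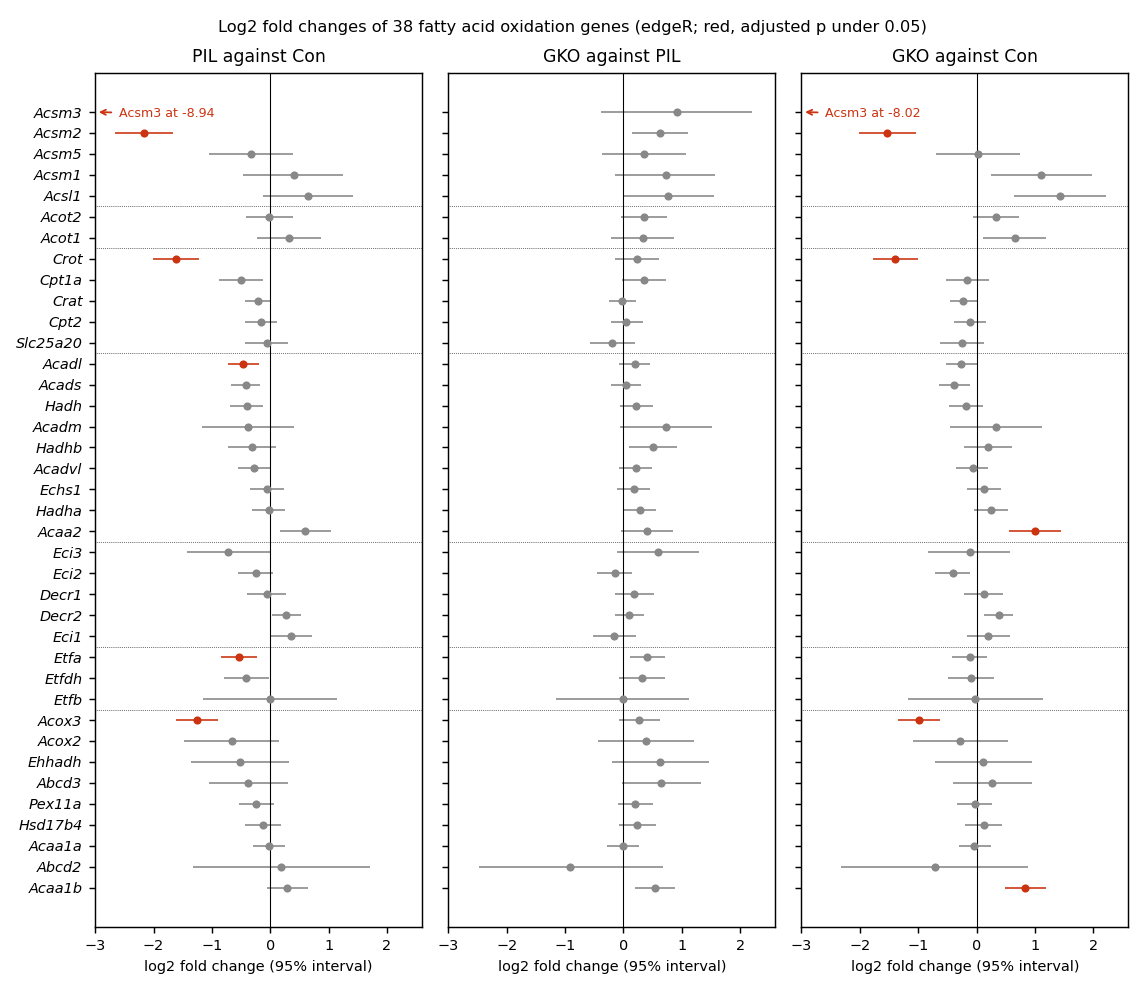
Log2 fold changes (horizontal axes) of the 38 genes (vertical axis, grouped by role) in the 3 comparisons, with 95% intervals derived from the edgeR test and called genes in red. Acsm3 lies beyond the left edge at -8.94 and -8.02 in the comparisons with Con, and 31 of the 38 points lie above 0 in GKO against PIL.

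The third comparison set Gsdmd-/- kidneys beside WT kidneys given saline. It shares the GKO libraries with the second comparison and the Con libraries with the first. In GKO kidney 4 of the 38 genes fell, namely Acsm3, Crot, Acsm2 and Acox3, and 2 rose, Acaa2 and Acaa1b. Of all genes, 3.01% were called, 1.46% lower and 1.55% higher. The median of the 38 genes was -0.04, against -0.01 over all genes, and 21 were negative, against 51.7% of all genes. GKO lay above Con in all libraries for 8 of the 38 genes and below for 8, against 24.8% of all genes in either direction. The 4 genes called lower were also called lower in PIL against Con, and 8 genes were called in at least 1 of these comparisons. Without Con replicate 1, 3 of the 38 genes were called in GKO against Con, against 0.731% of all genes. Without GKO replicate 1 or GKO replicate 3, 2 were, against 0.887% and 0.795% of all genes. All of these calls were lower.

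Acaa2, the mitochondrial thiolase, was at 183, 167 and 269.6 CPM in Con, 287, 307 and 344 in PIL and 394, 487 and 358 in GKO. The 3 groups did not overlap, with Con lowest and GKO highest. The log2 fold change in GKO against Con was 1.0 ± 0.20, or 2.00 times the Con level (adjusted p = 0.0309, edgeR). In PIL against Con it was 0.60 ± 0.20 and was not called (adjusted p = 0.0917). For Acaa1b the log2 fold change in GKO against Con was 0.83 ± 0.16, or 1.77 times the Con level (adjusted p = 0.0253, edgeR). Both calls were lost without Con replicate 1 or 2, PIL replicate 2 or any GKO replicate, with adjusted p up to 0.154 for Acaa2 and 0.134 for Acaa1b in edgeR. Of the exonic bases of Acaa1b, 11.4% lie under Dlec1 on the opposite strand, and Acaa1a is a close paralog.

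In the same comparison 14 of the 38 genes had an unadjusted p under 0.05, against 14.6% of all genes, and 8 of the 14 were not called. Acsl1, Acsm1, Acot1 and Decr2 were higher in GKO and Acads, Eci2, Acadl and Crat were lower, with log2 fold changes between -0.41 and 1.42. Acads was at 176 to 185 CPM in GKO against 207 to 251 in Con (-0.38 ± 0.11, adjusted p = 0.136, edgeR).

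A wider list of 46 genes of fatty acid activation, uptake and oxidation, of which 42 were tested, held both directions. Slc27a2 belonged both to this list and to the proximal tubule markers. In PIL against Con 8 fell and 3 rose, against 3.14% and 4.48% of all genes. Amacr, the racemase of branched chains, was at 237 to 418 CPM in Con and 80.9 to 114 in PIL (log2 fold change -1.76 ± 0.22, adjusted p = 0.00376, edgeR). Phyh, which begins the breakdown of phytanic acid, and Acot12, a thioesterase, had log2 fold changes of -0.77 ± 0.12 and -1.13 ± 0.18. Nudt19, Pecr, Cd36 and Acacb were also called lower. The 3 that rose were Acsf2 (0.77 ± 0.17), Acsl5 (0.47 ± 0.11) and the thioesterase Acot3 (1.98 ± 0.46). Without Con replicate 1, PIL replicate 2 or any GKO replicate none of the list was called higher. Calls over all genes, in either direction, fell as well in these runs. They were 1.66% without Con replicate 1, 1.59% without PIL replicate 2 and 3.9 to 4.17% without a GKO replicate, against 7.62% with all 9 libraries.

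In GKO against PIL no gene of the wider list was called, 11 had an unadjusted p under 0.05, against 20.9% of all genes, and limma-voom called 21, against 45.8%. Without PIL replicate 3 edgeR called 11, against 22.3% of all genes. In GKO against Con 7 fell and 3 rose, against 1.46% and 1.55% of all genes. Amacr (-1.45 ± 0.21, adjusted p = 0.00876, edgeR), Nudt19 (-1.61 ± 0.28) and Pecr (-1.13 ± 0.23) were among those that fell, and Slc27a1 (0.65 ± 0.12), Acsf2 (0.89 ± 0.17) and Acot3 (2.17 ± 0.47) rose. Few or none of these 10 calls remained in some runs with a library left out. Without GKO replicate 1, 0 genes of the list were called, against 0.887% of all genes. Without Con replicate 1, GKO replicate 2 or GKO replicate 3, 1 was called each time, against 0.731%, 0.814% and 0.795%. Calls over all genes thus fell as well in these runs, from 3.01% with no library left out.

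Of 8 nuclear regulators of these genes, 1 was called in each comparison with Con, against 7.62% of all genes for PIL and 3.01% for GKO. Rxra, the partner receptor of the PPARs, was at 156, 169 and 159.8 CPM in Con, 112, 115 and 132 in PIL and 129, 143 and 141 in GKO, and fell in PIL against Con (log2 fold change -0.43 ± 0.11, adjusted p = 0.0400, edgeR). Ppard, a fatty acid-sensing receptor, was at 60.3, 30.0 and 32.2 CPM in Con, 30.8, 33.7 and 38.7 in PIL and 88.1, 127 and 124 in GKO. It rose in GKO against Con (1.47 ± 0.27, adjusted p = 0.0222, edgeR), and all GKO libraries lay above all others. In GKO against PIL its log2 fold change was 1.72 ± 0.27, which was not called (adjusted p = 0.127, edgeR). The other 6, including Ppara and Ppargc1a, were not called in any comparison.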

How the data were processed

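The members and gene lists were chosen with earlier results of these data known. Kidney RNA was isolated with TRIzol and sequenced as paired ends, and the authors used Hisat2 for alignment to mm10 and HTSeq for counting. The submitters' processing notes also name TopHat2. The counts deposited by the authors are raw reads per gene. The FPKM deposited by the authors are these counts divided by gene length and library total (ratio to recomputed values 0.99999429 to 0.99999633) and were used only for levels between genes.

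Genes passing filterByExpr (14069 of 21935) were scaled by TMM. The 9 libraries of 3 groups, taken from the sample titles, were compared in 1 fit with the quasi-likelihood F-test of edgeR (robust), adjusted by Benjamini-Hochberg over all genes tested and called under 0.05. No batch is given in the labels. Library totals were 13311063 to 16299328 counts. Replicates differed by more than counting error (chi-square per degree of freedom 8.28 to 149). The fit was tested on simulated data. Values in each library were given for members called in at least 1 comparison and, where fewer than 5 were called, for the 5 with the lowest p, and other members by range. Of the wider list, those with the lowest p in each direction, at most 4 of the called genes, were named with values, except that 1 gene of the list is not reported here. Values of other members and of the called regulators were added after their values were seen.

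The alternatives tried were DESeq2, limma-voom with sample quality weights, upper-quartile or RLE scaling, either no filter or a minimum of 10 counts in every library, a block for the replicate number, the 6 libraries of 2 groups alone, and each of 9 libraries left out. R 4.3.3, edgeR 4.0.16, limma 3.58.1 and DESeq2 1.42.0 were used. Gene positions and overlaps came from GENCODE M21 (GRCm38), where all 38 genes have the table's start and end.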

Additional observations from a re-analysis of the deposited data

How the results depend on the processing

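In all, 17 alternatives were run. Single fold changes were followed through them for 10 of the 38 genes, namely the 8 called and Hadhb and Acsl1. Others of the 38 were followed where their unadjusted p was under 0.05. None of these changed sign. Single fold changes of the wider list and of the regulators were not followed. Crot kept its call in both comparisons with Con under all 17, Acsm2 and Acox3 in PIL against Con under all 17, and Acsm3 under the 16 in which it was tested, since at least 10 counts in every library removed it. In PIL against Con, Acadl and Etfa also lost their calls with upper-quartile scaling, with the replicate block (adjusted p = 0.0707 and 0.0533, edgeR) and with only the 6 libraries of these groups, and Acadl with no filter on low counts. DESeq2 called 10 of the 38 genes and 2285 of all genes in PIL against Con, 2 and 878 in GKO against PIL, and 909 of all genes in GKO against Con. With limma-voom and sample quality weights the counts were 20 of the 38 genes, 24 of the wider list and 6223 of all genes in PIL against Con, 16, 21 and 6443 in GKO against PIL, and 13, 18 and 2201 in GKO against Con. With only the 6 libraries of the groups compared, all genes called were 130, 1 and 766, and the wider list had 2 in PIL against Con. Leaving out 1 library at a time gave 4 to 14 of the 38 genes, 5 to 14 of the wider list and 226 to 3684 of all genes in PIL against Con. It gave 0 to 7, 0 to 11 and 0 to 3204 in GKO against PIL, and 2 to 9, 0 to 11 and 105 to 705 in GKO against Con. The highest counts in the first 2 comparisons were those without PIL replicate 3. The cause was not tested.

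The number of negative fold changes among the 38 genes in PIL against Con was 25 with upper-quartile scaling or limma-voom. Deviations from the group mean had correlations of -0.14 to 0.29 between same-numbered libraries of different groups and of -0.34 to 0.25 between differently numbered ones. These ranges overlapped, and the highest value, 0.29, was that of Con replicate 3 with PIL replicate 3. The numbers were not taken as pairs. With the replicate number as a block, 4, 0 and 7 of the 38 genes and 962, 3 and 347 of all genes were called in PIL against Con, GKO against PIL and GKO against Con.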

Other observations

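The ratios of neighbouring genes of the same family were set side by side. On chromosome 7, where Acsm5, Acsm2, Acsm1 and Acsm3 follow each other on the same strand, the ratio of Acsm2 to Acsm1 in FPKM was 9.16, 8.38 and 7.34 in Con, 2.81, 1.13 and 1.17 in PIL and 1.31, 1.45 and 1.18 in GKO. The ratio of Acsm3 to Acsm1 was 0.980 to 1.48 in Con, and at most 0.00790 in the other 6 libraries. For the peroxisomal thiolases on chromosome 9, the ratio of Acaa1b to Acaa1a was 2.50 to 4.46 in Con, 3.57 to 4.31 in PIL and 5.41 to 6.54 in GKO. For the isomerases on chromosome 13, the ratio of Eci3 to Eci2 was 6.91 to 11.8 in Con, 2.88, 6.20 and 10.2 in PIL and 9.59 to 11.3 in GKO. Con and PIL overlapped for both of these ratios. For the thioesterases on chromosome 12, the ratio of Acot2 to Acot1 overlapped between all groups, at 0.564 to 0.838 in Con, 0.480 to 0.582 in PIL and 0.461 to 0.635 in GKO. These genes are close paralogs, and no source used here says how reads that match several genes were counted.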
